A study of Mus musculus with 24 samples.

Results

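A set of 10 genes of hepatic insulin and IGF signalling (Insr, Irs1, Irs2, Pik3r1, Akt1, Akt2, Ghr, Igf1, Igfbp1 and Igfbp2) was followed in livers of mice treated with siRNAs against Keap1. The genes were chosen by name. Every probe set that the array annotation assigns to one of them alone was taken, which gave 25 of the 45037 probe sets tested and 10 of 18193 genes. Irs1, Irs2, Igfbp1 and Igfbp2 have 1 probe set each. Where a gene has several, the one with the largest average signal across the 24 arrays, called the brightest, stood for the gene.

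In the liver, insulin binds the insulin receptor, whose substrates recruit phosphoinositide 3-kinase and so activate the Akt kinases, which shut off FoxO-driven genes such as Igfbp1 and Irs2. Growth hormone acts on the same cells through its receptor and drives the secretion of IGF-1, which circulates bound to IGF binding proteins. Igfbp1 is known for its sharp rise in fasting and fall after a meal.

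The series holds 24 Affymetrix arrays of liver RNA, 1 per mouse, with 8 mice in each of 3 groups. All were male C57BL6/J mice, 8 weeks old when the study began, on a Western diet with 6% sucrose in the drinking water. Over 7 weeks each mouse received a weekly tail vein injection of 1 mg/kg of a chemically modified siRNA in lipid nanoparticles: a scrambled sequence (siControl) or one of the Keap1 siRNAs (siKeap1-1 and siKeap1-2), and Keap1 is the protein that holds the transcription factor Nrf2 in check. RNA came from fed and fasted mice in every group according to the study's methods, but the labels do not say which mouse was which, so feeding was not used and forms part of the spread within groups. Relative to siControl, Keap1 differed by -2.13 on the log2 scale (SE 0.11) in the siKeap1-1 livers and by -1.36 (SE 0.11) in the siKeap1-2 livers at its brightest probe set (limma adjusted p = 2.28e-12 and 1.89e-08). Nqo1, a classical Nrf2 target, rose by 2.22 and 1.91 in the same groups (SE 0.10 for both, limma adjusted p = 8.78e-14 and 3.01e-12).

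The tissue was checked on marker lists. The means of the 7 hepatocyte markers lay between 14.11 and 14.34 on the log2 scale in every array, and those of the pancreas markers between 4.68 and 5.16. Among the markers of other liver cells, Sox9 (cholangiocytes) rose by 0.87 and 0.96 with siKeap1-1 and siKeap1-2, Vsig4 (Kupffer cells) fell by 0.60 with siKeap1-1 and Marco (also Kupffer cells) rose by 1.49 with siKeap1-2 (limma adjusted p = 5.82e-05, 2.70e-05, 0.0180 and 0.0122). These were 1 of the 4 cholangiocyte markers and 1 of the 5 Kupffer cell markers in each comparison. The median log2 differences of the cholangiocyte list were 0.10 and -0.35 and those of the Kupffer cell list -0.13 and -0.02, and the array means of both lists overlapped between the groups (6.73 to 7.55 and 9.52 to 11.10 over all arrays). Their part in the results was not tested. In whole liver, fewer cells of a type and less RNA per cell cannot be told apart. A control probe set for 18S ribosomal RNA was higher with both siRNAs, by 1.23 in the siKeap1-1 livers (two-sided exact permutation p = 0.00435, n = 8) and by 1.18 in the siKeap1-2 livers (two-sided exact permutation p = 0.00155, n = 8). It read 10.34 to 10.77 in siControl replicates 1 to 3 and 8.86 to 9.54 in replicates 4 to 8, and 10.17 to 10.44 and 11.17 to 11.43 in the same numbers of siKeap1-1. The other 18S probe sets differed by 0.23 and 0.21 with siKeap1-1 (exact permutation p = 0.0238 and 0.0432). With siKeap1-2 they differed by 0.21 and 0.16 (exact permutation p = 0.0883 and 0.0628). The 5′ controls of beta-actin and Gapdh differed by 0.19 and 0.14 with siKeap1-1 (exact permutation p = 0.126 and 0.0668). With siKeap1-2 these were 0.31 and 0.15 (exact permutation p = 0.0342 and 0.0326). The mean of the 18S probe sets was used as a covariate. Values with it are given beside some results, and others in the closing section on processing.

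Promoters of 9 of the 10 genes, 16 in all, were available from RefSeq (GRCm38.p6), each running from 250 bases before to 50 bases after a start of transcription. Those of the binding protein genes and the receptor substrates are shown, because insulin acts on Igfbp1 and Irs2 through FoxO factors, Irs1 is the sister gene of Irs2, and Igfbp2 had the largest difference between groups. Capitals mark the insulin response core, which is CAAAACA and reads as TGTTTTG when it lies on the other strand. They also mark the antioxidant response core of Nrf2 sites, which is TGACNNNGC and reads as GCNNNGTCA when it lies on the other strand. All sequences run 5′ to 3′ in the direction of transcription.
Igfbp1 chr11:7197537-7197836 (+ strand): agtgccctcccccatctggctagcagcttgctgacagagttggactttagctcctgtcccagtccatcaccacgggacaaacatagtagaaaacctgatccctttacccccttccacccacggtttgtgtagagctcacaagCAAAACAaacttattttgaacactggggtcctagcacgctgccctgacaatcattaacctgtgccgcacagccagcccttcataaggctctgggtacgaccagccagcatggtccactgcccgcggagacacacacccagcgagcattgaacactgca
Igfbp2 chr1:72825137-72825436 (+ strand): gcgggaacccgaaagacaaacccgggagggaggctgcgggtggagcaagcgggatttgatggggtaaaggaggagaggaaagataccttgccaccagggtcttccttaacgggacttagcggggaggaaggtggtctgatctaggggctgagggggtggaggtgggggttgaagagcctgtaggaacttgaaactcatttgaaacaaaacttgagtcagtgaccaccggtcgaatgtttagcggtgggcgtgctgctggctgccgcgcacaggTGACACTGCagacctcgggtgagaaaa
Irs1 chr1:82291390-82291689 (- strand): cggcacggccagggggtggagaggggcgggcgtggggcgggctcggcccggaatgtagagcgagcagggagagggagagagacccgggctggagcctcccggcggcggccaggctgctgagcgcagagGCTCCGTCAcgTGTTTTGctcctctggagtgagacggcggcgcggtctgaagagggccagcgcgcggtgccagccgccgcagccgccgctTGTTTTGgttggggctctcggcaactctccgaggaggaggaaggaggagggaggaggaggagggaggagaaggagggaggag
Irs2 chr8:11008880-11009179 (- strand): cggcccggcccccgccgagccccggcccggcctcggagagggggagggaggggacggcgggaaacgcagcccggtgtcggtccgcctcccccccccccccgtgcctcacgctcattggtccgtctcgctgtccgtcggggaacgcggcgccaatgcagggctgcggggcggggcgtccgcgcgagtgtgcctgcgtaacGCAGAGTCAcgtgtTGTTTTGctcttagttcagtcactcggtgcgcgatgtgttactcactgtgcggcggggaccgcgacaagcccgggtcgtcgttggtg
The insulin response core stood 108 bases before the start of Igfbp1, 111 and 32 bases before that of Irs1 and 37 bases before that of Irs2. It was found in 3 of the 16 promoters, and in 6.28% of all 32851 promoters of this length. The antioxidant response core lay 23 bases past the start in the Igfbp2 promoter shown (the first of its 2 annotated promoters held neither core), 122 bases before the start of Irs1 and 51 bases before that of Irs2. This core was in 3 of 16 promoters, against 12.4% of all promoters. The STAT5 motif TTCNNNGAA (the same on both strands), read by the factor downstream of the growth hormone receptor, occurred in 1 of the 16, an Akt2 promoter, and in 8.3% of all. No 2 of these matches overlapped, and a match describes letters only.

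Counts for the 10 genes are given beside the share over all probe sets or genes, and were not tested against that share. With siKeap1-1, 3 of the 25 probe sets passed the threshold (limma adjusted p under 0.05 over all probe sets) and all 3 were lower: those of Igfbp2, Pik3r1 and Akt2. Over all probe sets 8.99% passed in this comparison, 4.51% higher and 4.48% lower. With siKeap1-2, 1 of 25 passed, the same Akt2 probe set, against 6.1% of all (3.15% higher, 2.96% lower). By brightest probe sets, 2 of 10 genes passed with siKeap1-1 (9.49% of all genes) and 0 of 10 with siKeap1-2 (6.6% of all genes). At an unadjusted limma p under 0.05, 8 and 5 of the 25 probe sets passed (23% and 20.5% of all). By a fold over 2 with an unadjusted limma p under 0.01, 1 and 0 of the 25 passed, against 0.617% and 0.557% of all. The median log2 difference of the 10 genes was -0.07 with siKeap1-1 and -0.05 with siKeap1-2, against 0.01 and -0.01 over all genes. In both comparisons the ranges of the groups overlapped at all 25 probe sets, while 1.45% and 1.21% of all probe sets had ranges apart.

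**Figure D1:**
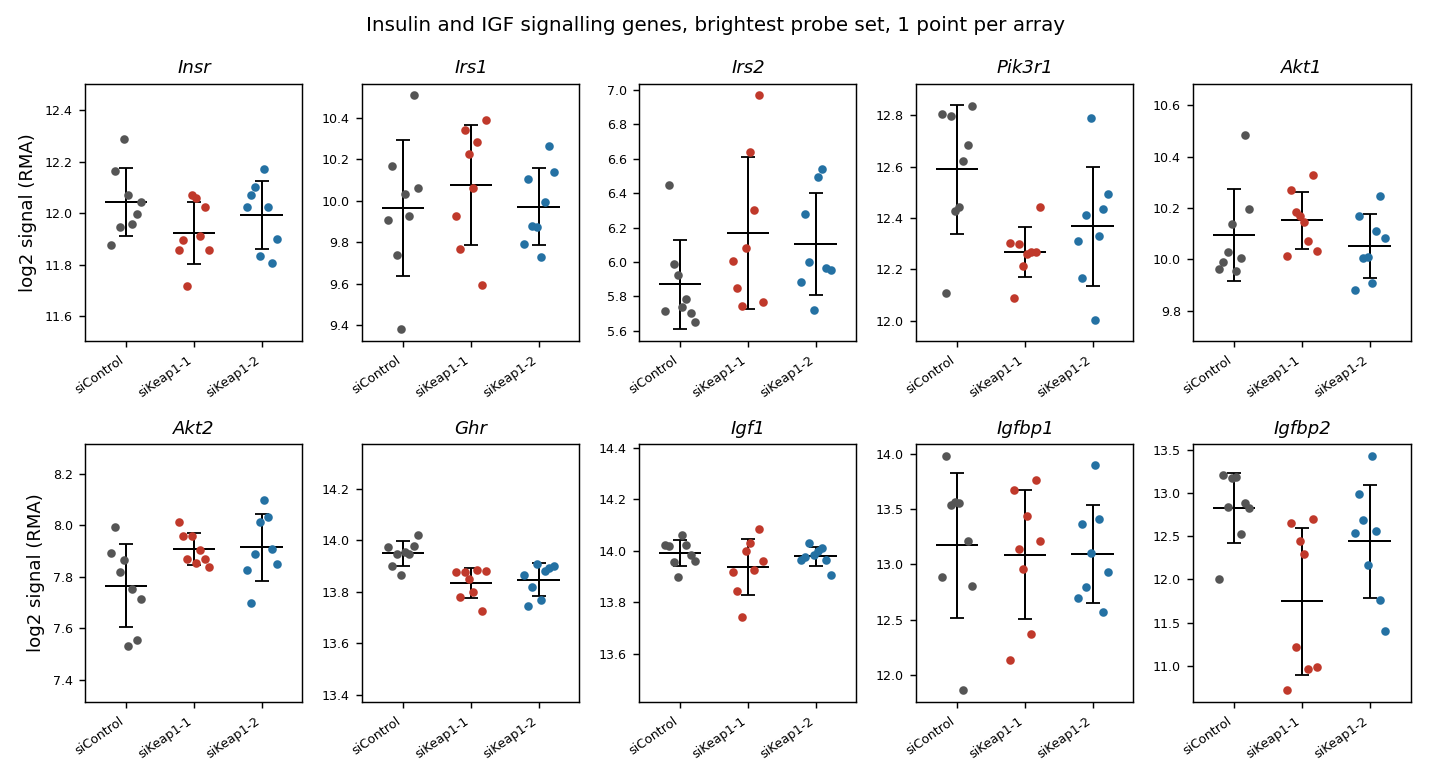
Log2 signal (y axis) of the brightest probe set of each gene in the 24 arrays, 1 point per mouse, by siRNA group (x axis), with the mean as a line and the SD as bars (n = 8). The siKeap1-1 mice fall into a lower set of 4 (10.72 to 11.22) and an upper set of 4 (12.29 to 12.70) for Igfbp2, while most genes overlap widely between groups.

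Insr encodes the insulin receptor. At its brightest probe set the signal ran from 11.88 to 12.29 with siControl (median 12.02), from 11.72 to 12.07 with siKeap1-1 (median 11.90) and from 11.81 to 12.17 with siKeap1-2 (median 12.02). Most arrays of the 3 groups shared the same range, with 3 siKeap1-1 arrays below all controls. The differences from siControl were -0.12 (95% interval -0.26 to 0.02) and -0.05 (-0.19 to 0.09), and neither passed (limma adjusted p = 0.311 and 0.733). The other two Insr probe sets differed by between -0.01 and 0.09.

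Irs1 and Irs2 encode the main substrates of the receptor in hepatocytes. Irs1 ran from 9.38 to 10.51 with siControl (median 9.98), from 9.60 to 10.39 with siKeap1-1 (median 10.14) and from 9.73 to 10.26 with siKeap1-2 (median 9.94). The control range enclosed all arrays of both siRNAs. The differences of 0.11 (SE 0.13) and 0.01 (SE 0.13) did not pass (limma adjusted p = 0.677 and 0.986). Irs2 ran from 5.65 to 6.45 with siControl (median 5.76), from 5.74 to 6.97 with siKeap1-1 (median 6.04) and from 5.72 to 6.54 with siKeap1-2 (median 5.98). Its only probe set had a low signal, with a mean of 6.05 at percentile 37.3 of all genes, near the array medians (5.84 to 5.96). In each siRNA group 2 arrays were above all controls and 1 was below the control median. The differences of 0.30 (95% interval -0.03 to 0.63) and 0.23 (-0.10 to 0.57) did not pass (limma adjusted p = 0.275 and 0.446), and with the 18S control probe sets as a covariate they turned to -0.21 and -0.24.

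Pik3r1 encodes the regulatory subunit p85-alpha of phosphoinositide 3-kinase. Its brightest probe set ran from 12.11 to 12.84 with siControl (median 12.65), from 12.09 to 12.44 with siKeap1-1 (median 12.27) and from 12.00 to 12.79 with siKeap1-2 (median 12.37). All 8 siKeap1-1 arrays and 7 of 8 siKeap1-2 arrays were below the control median, although 1 control at 12.11 lay among the lowest. Pik3r1 fell by 0.32 with siKeap1-1 (SE 0.10, limma adjusted p = 0.0448), to 0.80 of the control signal. With siKeap1-2 the difference was -0.22 (SE 0.10, limma adjusted p = 0.207).

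The siKeap1-1 call for Pik3r1 stood close to the threshold. It was kept in 7 of the 24 fits that each left out 1 array and lost in 17 (limma adjusted p from 0.00737 to 0.0970), with differences from -0.39 to -0.29. With the 18S control probe sets as a covariate the difference was -0.17 (limma adjusted p = 0.668). Within replicate numbers 1 to 3 and within 4 to 8 it was -0.34 and -0.31. Of the other three Pik3r1 probe sets, 1425515_at differed by -0.30 and -0.29 with the siRNAs (limma adjusted p = 0.221 and 0.268), and the remaining pair lay between 0.05 and 0.20.

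Akt1 and Akt2 encode the kinases that carry the insulin signal onward, Akt2 being the main form in insulin-responsive tissues. The brightest Akt1 probe set ran from 9.96 to 10.48 with siControl (median 10.02), from 10.01 to 10.33 with siKeap1-1 (median 10.16) and from 9.88 to 10.25 with siKeap1-2 (median 10.05). The groups overlapped, and the differences of 0.06 and -0.04 (SE 0.07 for both) did not pass (limma adjusted p = 0.710 and 0.802). At the other three Akt1 probe sets the differences were positive, from 0.05 to 0.21, and none passed.

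The 3 probe sets of Akt2 disagreed. At 1455703_at the signal ran from 7.11 to 7.75 with siControl (median 7.44), from 6.85 to 7.34 with siKeap1-1 (median 6.94) and from 6.75 to 7.42 with siKeap1-2 (median 7.10). There 7 of 8 siKeap1-1 arrays and 5 of 8 siKeap1-2 arrays were below all controls. It fell by 0.42 with siKeap1-1 (SE 0.10, limma adjusted p = 0.00668) and by 0.32 with siKeap1-2 (SE 0.10, limma adjusted p = 0.0484). At the brightest probe set, 1424480_s_at, all 8 siKeap1-1 arrays (7.84 to 8.01) and 7 of 8 siKeap1-2 arrays (7.70 to 8.10) lay above the control median (7.79, range 7.53 to 7.99). Its differences of 0.14 and 0.15 (SE 0.07 for both) did not pass (limma adjusted p = 0.201 and 0.204). At 1421324_a_at the differences were 0.08 and -0.14, so no single direction described the gene. Averaged over its probe sets, Akt2 differed by -0.07 and -0.10 (limma adjusted p = 0.518 and 0.301).

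The siKeap1-1 difference of Akt2 at 1455703_at passed in all 24 fits that left out 1 array and the siKeap1-2 difference in 5 of 24, with limma adjusted p up to 0.0159 and 0.108. With the 18S control probe sets as a covariate the differences were -0.27 and -0.18 (limma adjusted p = 0.387 and 0.763). Within replicate numbers 1 to 3 the siKeap1-1 difference was -0.20, and within 4 to 8 it was -0.55.

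**Figure D2:**
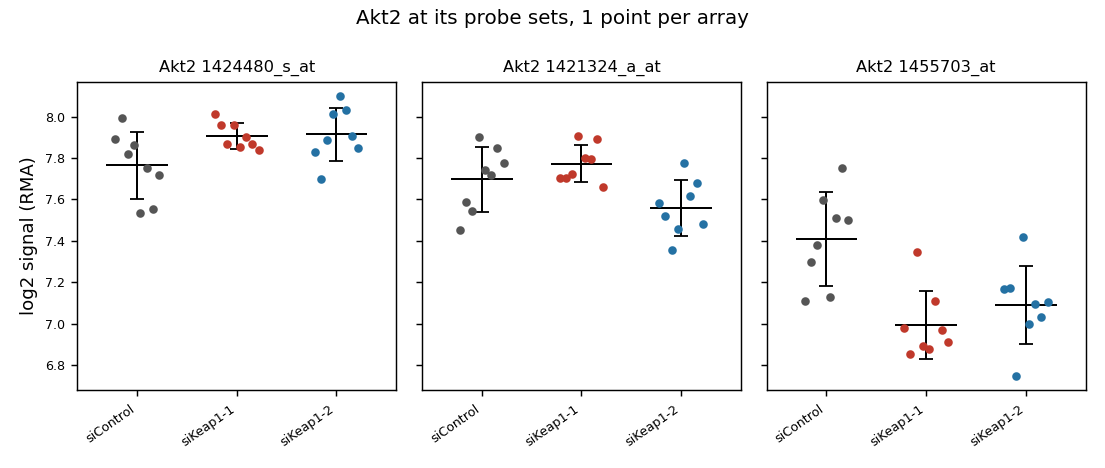
Log2 signal (y axis) of Akt2 at its 3 probe sets in each of the 24 arrays by siRNA group (x axis), with mean and SD (n = 8). Only at 1455703_at do most siRNA arrays sit below the controls, and at 1424480_s_at most sit above the control median.

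Ghr encodes the growth hormone receptor. Its brightest probe set ran from 13.87 to 14.02 with siControl (median 13.95), from 13.72 to 13.89 with siKeap1-1 (median 13.86) and from 13.74 to 13.91 with siKeap1-2 (median 13.87). All 8 arrays of each siRNA lay below the control median, 4 and 3 of them below all controls. The differences were small, -0.11 (95% interval -0.20 to -0.02) and -0.10 (-0.19 to -0.01). By limma they did not pass (adjusted p = 0.104 and 0.179). The two-sided exact permutation p of this probe set, unadjusted and 1 of 25 computed in each comparison, was 0.000777 with siKeap1-1 and 0.00218 with siKeap1-2. Within replicate numbers 1 to 3 and within 4 to 8 the siKeap1-1 difference was -0.10 and -0.13. The other two Ghr probe sets differed by between -0.15 and -0.10, none past the threshold.

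Igf1 encodes the hormone that the liver releases under growth hormone. The brightest probe set ran from 13.90 to 14.06 with siControl (median 14.0004), from 13.74 to 14.08 with siKeap1-1 (median 13.94) and from 13.91 to 14.03 with siKeap1-2 (median 13.98). The groups overlapped, and the differences of -0.05 and -0.01 (SE 0.05 for both) did not pass (limma adjusted p = 0.568 and 0.925). At the other probe sets of Igf1 the siKeap1-1 differences were negative and larger. At 1434413_at 6 of 8 siKeap1-1 arrays lay below all controls, with a difference of -0.24 (SE 0.08, limma adjusted p = 0.0607). At 1437401_at 5 of 8 did, with -0.23 (SE 0.09, limma adjusted p = 0.109), and at 1419519_at the difference was -0.13 (SE 0.11, limma adjusted p = 0.494). With siKeap1-2 the same probe sets of Igf1 differed by -0.07, 0.0037 and -0.11 (limma adjusted p = 0.650, 0.988 and 0.624).

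Igfbp1 and Igfbp2 encode IGF binding proteins secreted by hepatocytes. Igfbp1 ran from 11.87 to 13.98 with siControl (median 13.37), from 12.14 to 13.76 with siKeap1-1 (median 13.18) and from 12.57 to 13.90 with siKeap1-2 (median 13.02). All arrays of both siRNAs lay within the control range. The differences of -0.09 and -0.08 had wide 95% intervals, from -0.63 to 0.46 and from -0.62 to 0.47, and did not pass (limma adjusted p = 0.889 and 0.910).

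Igfbp2 had the largest difference of the 10 genes. It ran from 12.00 to 13.20 with siControl (median 12.86), from 10.72 to 12.70 with siKeap1-1 (median 11.75) and from 11.41 to 13.43 with siKeap1-2 (median 12.55). With siKeap1-1 the arrays split into 4 between 10.72 and 11.22 (replicates 1, 3, 6 and 8), all below every control, and 4 between 12.29 and 12.70. The split followed the main axis of variation within groups, described below. Igfbp2 fell by 1.08 with siKeap1-1 (95% interval -1.71 to -0.45, SE 0.31, limma adjusted p = 0.0260), to 0.472 of the control signal. With siKeap1-2 the difference was -0.39 (95% interval -1.02 to 0.24, limma adjusted p = 0.521).

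The siKeap1-1 call for Igfbp2 was kept in 21 of the 24 fits that left out 1 array, with differences from -1.22 to -0.94. It was lost without siKeap1-1 replicate 1, 6 or 8 (limma adjusted p up to 0.0573). With the 18S control probe sets as a covariate the difference was larger, -1.37, but did not pass (limma adjusted p = 0.130). Within replicate numbers 1 to 3 and within 4 to 8 it was -1.15 and -1.04, while that of siKeap1-2 was 0.05 and -0.65.

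**Figure D3:**
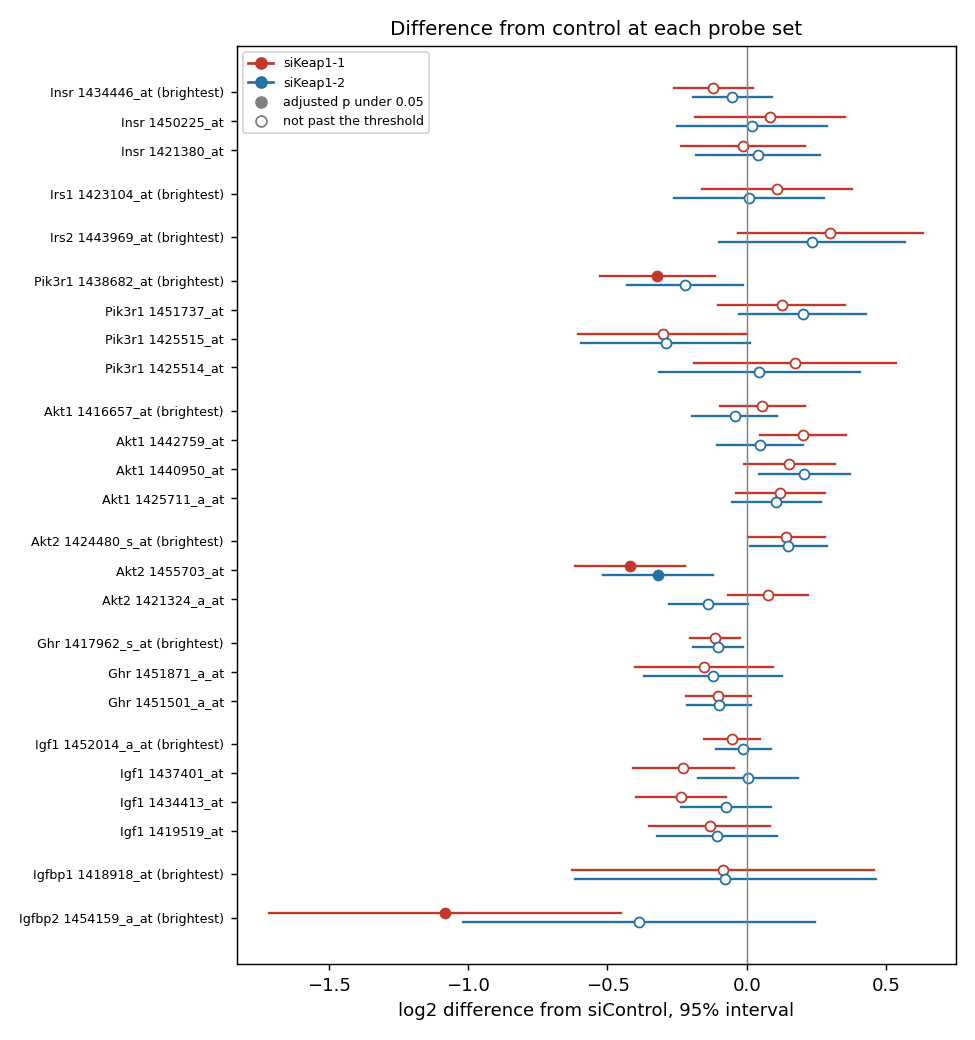
Log2 difference from siControl (x axis) with its 95% interval at each of the 25 probe sets (y axis), for siKeap1-1 (red) and siKeap1-2 (blue), with filled circles where the limma adjusted p was under 0.05. Filled circles stand at Igfbp2 and Pik3r1 for siKeap1-1 and at Akt2 1455703_at for both siRNAs, all left of 0.

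The siRNAs were also compared with each other. Of the 25 probe sets, 0 passed by limma, against 0.162% of all, and 3 had an unadjusted limma p under 0.05 (9.3% of all). By the two-sided exact permutation test 3 had an unadjusted p under 0.05, of which the Akt2 and Igf1 probe sets named next were shared with limma, and Igf1 at 1434413_at (exact p = 0.0496) stood in place of Igfbp2 (exact p = 0.0894). Igfbp2 was 0.69 lower with siKeap1-1 than with siKeap1-2 (95% interval -1.33 to -0.06, limma adjusted p = 0.482). Akt2 at 1421324_a_at differed by 0.21 (95% interval 0.07 to 0.36, limma adjusted p = 0.272) and Igf1 at 1437401_at by -0.23 (-0.41 to -0.05, limma adjusted p = 0.379). The call of Igfbp2 with siKeap1-1 alone is therefore not shown to differ between the siRNAs.

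The genes differed widely in how much they varied between mice of 1 group. The within-group SD of Igfbp2 was 0.661 and that of Igfbp1 0.566, at percentiles 98.7 and 97.9 of all genes, whose median SD was 0.185. Irs2 (0.342, at a signal near the array medians) and Irs1 (0.273) came next, followed by Pik3r1 (0.205). Igf1 (0.0725) and Ghr (0.0570) were at percentiles 2.13 and 0.940. Their probe sets were at percentiles 99.1 and 98.9 of mean signal, and the part of the signal level in the low SD was not tested.

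Mice of 1 group did not vary independently across the 10 genes. Deviations of each array from the mean of its group were correlated for all 45 pairs of genes, with permutations of the arrays within groups, and 12 pairs passed after Benjamini-Hochberg adjustment over the 45, of which 5 were positive. How many pairs of other genes would pass was not computed, so the count is not shown to be particular to these genes. Because the siKeap1-1 arrays fall into separate sets at Igfbp2, its pairs are given over the 16 arrays of siControl and siKeap1-2. This choice was made after seeing the data, and the split follows an axis shared by all groups, described below. In the pairs that passed, Insr, Irs2, Igfbp1 and Igfbp2 deviated with each other and against Ghr or Pik3r1. Not every such pair passed. Irs2 with Igfbp1 did not over the 24 arrays (adjusted permutation p = 0.0767) but did over the 16 (r = 0.652, adjusted permutation p = 0.0445), and Irs2 with Igfbp2 did not over the 16 (adjusted permutation p = 0.110). By Spearman rho Irs2 with Igfbp1 did not pass over the 16 (rho = 0.612, adjusted permutation p = 0.0616).

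Over those 16 arrays Igfbp2 deviated with Insr (Pearson r = 0.821, adjusted permutation p = 0.00675, Spearman rho = 0.868, adjusted permutation p = 0.0036). Igfbp2 also deviated with Igfbp1 (r = 0.612, adjusted permutation p = 0.0442, rho = 0.700, adjusted permutation p = 0.0243). It went against Ghr (r = -0.703, adjusted permutation p = 0.0363, rho = -0.738, adjusted permutation p = 0.0243) and against Pik3r1 (r = -0.669, adjusted permutation p = 0.0363, rho = -0.818, adjusted permutation p = 0.00495). Without the 2 arrays farthest from the median of the first gene of a pair, these r were 0.847, 0.583, -0.625 and -0.564. In the siControl arrays alone the r of Igfbp2 with Ghr was -0.458, and in the siKeap1-2 arrays it was -0.825.

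Over all 24 arrays, Pik3r1 and Ghr deviated together (r = 0.662, adjusted permutation p = 0.00394, rho = 0.680, adjusted permutation p = 0.00189). Insr went against Ghr (r = -0.683, adjusted permutation p = 0.00435, rho = -0.624, adjusted permutation p = 0.0119) and against Pik3r1 (r = -0.650, adjusted permutation p = 0.00604, rho = -0.695, adjusted permutation p = 0.0024). Leaving out the 2 farthest arrays gave 0.660, -0.631 and -0.686 for these pairs. Within groups the r of Insr with Ghr was -0.705, -0.533 and -0.811 in siControl, siKeap1-1 and siKeap1-2, so each group showed the same sign. Insr deviated with Irs2, whose signal lay near the array medians (r = 0.600, adjusted permutation p = 0.0127, rho = 0.615, adjusted permutation p = 0.0119, and 0.609 without the 2 farthest arrays). Irs2 went against Ghr (r = -0.626, adjusted permutation p = 0.0127, rho = -0.583, adjusted permutation p = 0.0239, and -0.481 without the 2 farthest). Irs1 was on the side of Ghr (r = 0.563, adjusted permutation p = 0.0176, rho = 0.530, adjusted permutation p = 0.0441, and 0.502 without the 2 farthest), and Igfbp1 went against Ghr (r = -0.594, adjusted permutation p = 0.0127, rho = -0.657, adjusted permutation p = 0.00424, and -0.704 without the 2 farthest). Over the 16 arrays without siKeap1-1 the last 4 pairs did not pass by Pearson r. By Spearman rho Irs2 with Ghr passed there (rho = -0.688, adjusted permutation p = 0.0325) and the others did not. There r was 0.561 for Insr with Irs2 (adjusted permutation p = 0.110), -0.603 for Irs2 with Ghr (adjusted permutation p = 0.0866), 0.399 for Irs1 with Ghr (adjusted permutation p = 0.262) and -0.489 for Igfbp1 with Ghr (adjusted permutation p = 0.144). Irs2 also went against Pik3r1 over the 24 arrays (r = -0.513, adjusted permutation p = 0.0134, rho = -0.5, adjusted permutation p = 0.0349). Over the 16 this pair passed as well (r = -0.767, adjusted permutation p = 0.012, rho = -0.7, adjusted permutation p = 0.0246). Its r was -0.766 in siControl, -0.101 in siKeap1-1 and -0.776 in siKeap1-2. All pairs share the same arrays.

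This axis was also the main one of the whole array. The first component of the deviations of all tested probe sets, those of the members left out, held 16.9% of their variance. The members' correlations with it, given as a description, were 0.799 for Ghr, 0.697 for Pik3r1 and 0.457 for Irs1, against -0.82 for Insr, -0.795 for Igfbp2, -0.625 for Igfbp1, -0.614 for Irs2 and -0.439 for Igf1. Akt1 (0.0817) and Akt2 (-0.195) were near 0. The split of the siKeap1-1 arrays at Igfbp2 followed the sign of this component. The lower set, replicates 1, 3, 6 and 8, was positive on it (0.163 to 0.290), and the upper set was negative. In siKeap1-2 the positive arrays, replicates 1, 4, 7 and 8, were also the lowest at Igfbp2. The same held in siControl, where replicates 1, 3, 6, 7 and 8 were positive. Feeding, which differed between mice within every group, cannot be assigned to single arrays from the labels, and its part in this axis was not tested.

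**Figure D4:**
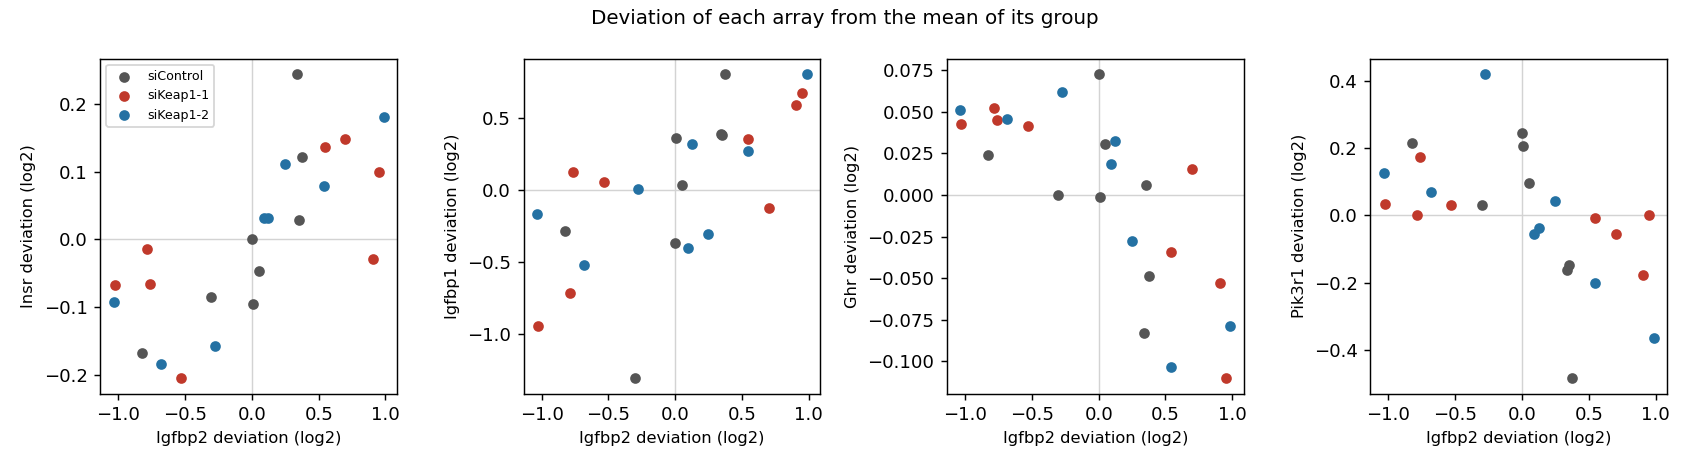
Deviation of Igfbp2 (x axis, log2) from the group mean against that of Insr, Igfbp1, Ghr and Pik3r1 (y axes, log2), 1 point per array, coloured by siRNA group. Points rise to the right for Insr and Igfbp1 and fall for Ghr and Pik3r1 in each colour, and the siKeap1-1 arrays stand in separate left and right sets.

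The genes whose deviations were most like those of a member were sought among 11701 candidate genes over the 24 arrays. For Insr these were Pnpla2, the adipose triglyceride lipase (r = 0.903, rho = 0.918), Slc25a22, a mitochondrial glutamate carrier (r = 0.897), and Adcy6, an adenylate cyclase (r = 0.893). For Igfbp2 they were 1810053B23Rik (r = 0.894), Ctsf, which encodes cathepsin F (r = 0.889), and Snhg12 (r = 0.888). For Igfbp1 they were Vsig2 (r = 0.785), Il6ra, an interleukin 6 receptor chain (r = 0.781), and Angptl4, an inhibitor of lipoprotein lipase (r = 0.775). For Ghr they were Chac2 (r = 0.874), Slc22a30 (r = 0.856) and Car3, a carbonic anhydrase (r = 0.847), and for Pik3r1 Wdfy2 (r = 0.856). The likest gene reached 0.826 for Irs2 (Eif3k), 0.808 for Akt1 (Wnk4), 0.789 for Igf1 (Serpinf1), 0.769 for Irs1 (Hipk2) and 0.606 for Akt2 (Mycbp). Without the 2 arrays farthest from the median of the like gene, these were 0.805, 0.841, 0.558, 0.615 and 0.431. For Igf1 with Serpinf1 the r was 0.302 in siControl, 0.962 in siKeap1-1 and 0.503 in siKeap1-2. Each named gene was picked as the highest of all candidates, which raises its r, and no p was computed.

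Of 76 further genes of insulin, IGF and growth hormone signalling, 70 had a probe set of their own. With siKeap1-1, 5 passed, 2 higher and 3 lower, and with siKeap1-2 4 passed, 2 higher and 2 lower, against 9.49% and 6.6% of all genes. Their median log2 differences were -0.08 and -0.06. None of the 8 genes of the IGF axis, the 11 of growth hormone receptor signalling or the 10 of phosphoinositide 3-kinase and its phosphatases passed in either comparison by limma, while 2, 2 and 3 of them with siKeap1-1 and 0, 4 and 2 with siKeap1-2 had an unadjusted p under 0.05 (24.5% and 21.9% of all genes). Between the siRNAs 0 of 70 passed by limma (0.242% of all genes), and 6 had an unadjusted p under 0.05 (9.29% of all genes).

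Sesn1, a sestrin that restrains mTORC1, fell with both siRNAs, from 10.44 to 10.85 with siControl (median 10.73) to 9.94 to 10.42 with siKeap1-1 (median 10.34) and 10.05 to 10.56 with siKeap1-2 (median 10.29). The siKeap1-1 arrays lay below all controls. The differences were -0.39 and -0.41 (SE 0.08 for both, limma adjusted p = 0.00202 and 0.00249), and both passed in all 24 fits that left out 1 array. With the 18S control probe sets as a covariate they were -0.38 and -0.39 (limma adjusted p = 0.102 and 0.160). Ppargc1a, the coactivator of gluconeogenic genes, fell by 0.56 with siKeap1-1 (SE 0.13, limma adjusted p = 0.00899), and its difference with siKeap1-2 was -0.36 (limma adjusted p = 0.113).

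Pnpla3, a lipase gene under insulin control through SREBP-1c, ranged from 5.23 to 10.28 with siControl (median 8.35), from 5.41 to 7.31 with siKeap1-1 (median 5.99) and from 5.29 to 7.04 with siKeap1-2 (median 6.07). The lowest control lay below every siRNA array. Pnpla3 fell with both siRNAs, with differences of -1.87 and -1.93 (SE 0.58 for both, limma adjusted p = 0.0432 and 0.0485), and the calls were kept in 12 and 5 of the 24 fits that left out 1 array. With the 18S control probe sets as a covariate the differences were -0.83 and -0.96 (limma adjusted p = 0.726 and 0.805). G6pc and Pck1, the gluconeogenic enzymes, differed by -0.26 each in siKeap1-1 livers, and the siKeap1-2 differences were -0.32 and -0.16, none past the threshold (limma adjusted p = 0.554, 0.291, 0.486 and 0.575). Srebf1, which encodes SREBP-1c, differed by -1.03 and -0.76 (SE 0.45 for both, limma adjusted p = 0.160 and 0.352).

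Downstream of Akt, Akt1s1, which encodes the mTORC1 subunit PRAS40, rose by 0.27 with siKeap1-1 (SE 0.05, limma adjusted p = 0.00167), its arrays from 8.36 to 8.55 lying above all controls (8.07 to 8.30). Eif4ebp1, the translation repressor 4E-BP1, rose by 0.31 with siKeap1-1 (SE 0.09, limma adjusted p = 0.0315), and this call was kept in 17 of 24 fits that left out 1 array. With siKeap1-2 the differences were 0.15 and 0.10 (limma adjusted p = 0.0991 and 0.580). Trib3, a pseudokinase that binds Akt, rose by 1.20 with siKeap1-2 (SE 0.30, limma adjusted p = 0.0184) and differed by 0.80 with siKeap1-1 (limma adjusted p = 0.103). Insrr, a receptor related to Insr, rose by 0.27 with siKeap1-2 (SE 0.08, limma adjusted p = 0.0393) at signals of 5.26 to 6.12, and the call was kept in 14 of 24 such fits. With the 18S control probe sets as a covariate only Akt1s1 still passed among these pathway genes (0.32, limma adjusted p = 0.0284), and 1.85% of all probe sets did with siKeap1-1. What the 18S signal contributes to these differences was not tested.

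**Figure D5:**
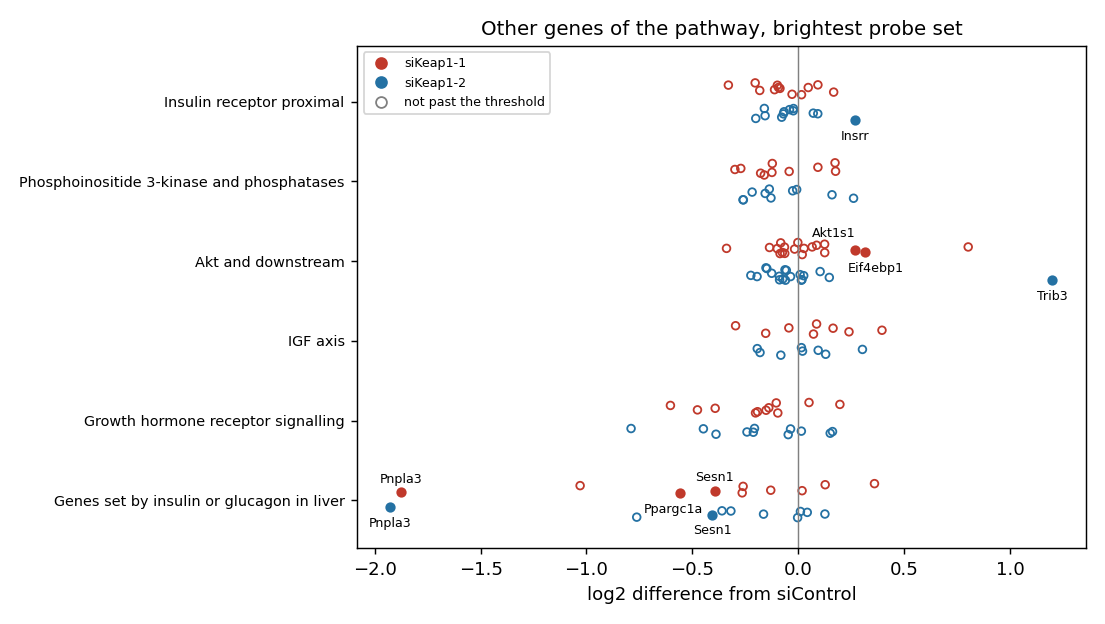
Log2 difference from siControl (x axis) of the brightest probe set of each of the 70 other pathway genes, by role (y axis), for siKeap1-1 (red) and siKeap1-2 (blue), with filled and named points where the limma adjusted p was under 0.05. Most points lie near 0, and Pnpla3 and Trib3 stand farthest out on either side among the named genes.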

How the data were processed

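Liver RNA of 24 mice was hybridised to Affymetrix whole genome mouse arrays. The authors deposited log2 signals made with RMA, and no source used here names its version. These values were used as they stand, and the array medians lay between 5.84 and 5.96. The 64 controls among the 45101 probe sets were not tested. The platform annotation names 1 gene for 34945 of the remaining 45037, several for 932 and none for 9160. The groups were compared with limma 3.58.1 in R 4.3.3 (a single fit of 3 groups, Benjamini-Hochberg adjustment over all probe sets, threshold 0.05). The fit was also run on simulated data with independent noise at each probe set. Such data cannot show how the fit handles variation shared between probe sets, as in the real arrays. Single probe sets were also compared by two-sided exact permutation over 12870 splits, and pairs of genes by 100000 permutations within groups in Python 3.11.15 (numpy 2.4.6). The number of arrays limits the precision. Named were the 10 genes with every probe set, the pathway genes of a list and the likest genes of each member. The members and lists were chosen with earlier results of these data known. A 2-way model with feeding was not fitted, because the labels do not give it.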

Additional observations from a re-analysis of the deposited data

Results flagged for a closer look

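In each of the 75 combinations of a probe set and a group of 8 arrays, the highest and the lowest array were compared with the rest, and 3 stood far from the other arrays by Dixon's ratio, a rule by which chance flags about 1 in 20 groups. For Akt1 at 1416657_at, siControl replicate 7 was the highest of its group at 10.4841, and the next array was at 10.1977. For Irs2, siControl replicate 2 was the highest of its group at 6.4491, with the next array at 5.9904. For Igf1 at 1419519_at, siKeap1-1 replicate 3 was the lowest of its group at 11.0199, with the next array at 11.4628.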

How the results depend on the processing

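The differences were recomputed with 1 array left out, with arrays centred or quantile normalized again, with dim probe sets left out, with other variance models, with covariates and with fewer controls. The values compared were differences of single genes and counts of passes. A difference was unchanged if it kept its direction and its side of the threshold. A count was unchanged if it stayed within 1.5 times, or at 0 where it was 0. By this rule 835 of 912 values were unchanged with 1 array left out, and 360 of 403 in the other settings. With siKeap1-1, 3 member probe sets passed. The count was 5 without dim probe sets and 5 with a trended, robust variance, 6 with the first residual component as a covariate, 9 by exact permutation (unadjusted), 1 by a fold over 2 with an unadjusted p under 0.01, 1 with probe sets averaged by gene, and 1 to 3 with 1 array left out (1 without siKeap1-1 replicate 1 or 6). Ghr passed in the first 3 of these (adjusted p = 0.0446, 0.0207 and 0.0487). In the same 3 settings 19.4% (of the 22519 probe sets kept), 9.46% and 11.7% of all probe sets passed, against 8.99% in the main fit. Exact permutation was run on single probe sets only and has no such share. Its count of 9 at an unadjusted p under 0.05 stands beside 8 by limma at that level. With 1 array left out, 6.97% to 9.68% of all probe sets passed with siKeap1-1. With the 18S covariate 2 passed with siKeap1-1 (1.85% of all probe sets), but all 3 calls were lost and those that passed were Igf1 at 1437401_at (-0.51, adjusted p = 0.00833) and 1434413_at (-0.41, adjusted p = 0.0435). With siKeap1-2, where 1 passed, the count was 0 with the 18S covariate, with the trended variance, by the fold rule, by gene averages, with only the 2 groups compared and after repeated quantile normalization. It was 0 to 1 with 1 array left out, where 4.05% to 7.32% of all probe sets passed. At an unadjusted p under 0.05 the count was 3 by exact permutation and 5 by limma. Of all probe sets 0.588% passed with the 18S covariate and 6.19% with the trended variance. With only the 2 groups compared 5.92% did, and after repeated quantile normalization 5.97%. Between the siRNAs 0 passed in the main fit. At an unadjusted p under 0.05 the count there was 3 by exact permutation and 3 by limma.

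With only siControl replicates 1 to 3 as controls, a choice made after seeing the data, 0 member probe sets passed with either siRNA (Igfbp2 -0.94, adjusted p = 0.298, and Pik3r1 -0.30, adjusted p = 0.287). Of all probe sets only 3.42% passed there with siKeap1-1 and 0.795% with siKeap1-2. With only replicates 4 to 8, 4 member probe sets passed with siKeap1-2 (9.55% of all probe sets), the brightest Akt2 probe set among them (0.23, adjusted p = 0.0436). For the other pathway genes with siKeap1-1 (5 passed), the count was 1 with the 18S covariate, 8 with the residual component, 1 with controls 1 to 3, 9 with controls 4 to 8 and 3 to 7 with 1 array left out. Of all probe sets 1.85%, 11.7%, 3.42% and 9.92% passed in the first 4 of these settings, and 6.97% to 9.68% with 1 array left out. With siKeap1-2 (4 passed) the count was 0 with the 18S covariate, 2 with the trended variance, 2 with only the 2 groups, 0 with controls 1 to 3 and 2 to 5 with 1 array left out. There 0.588%, 6.19%, 5.92% and 0.795% of all probe sets passed in the first 4, and 4.05% to 7.32% with 1 array left out.

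Directions turned for differences that did not pass. With controls 4 to 8, Akt1 with siKeap1-1 was -0.0048, Igfbp1 was 0.089 and 0.099 with the siRNAs and Irs1 with siKeap1-2 was -0.0099. With controls 1 to 3, Akt1 with siKeap1-2 was 0.059, and after centring Irs1 with siKeap1-2 was -0.0039. With the 18S covariate Irs2 was -0.21 and -0.24, from 0.30 and 0.23. With 1 array left out, Igfbp1 ran from -0.27 to 0.049 with siKeap1-1, from -0.26 to 0.038 with siKeap1-2 and from -0.11 to 0.13 between the siRNAs. Akt1 ran from -0.070 to 0.013 and Irs1 from -0.077 to 0.084 with siKeap1-2, and between the siRNAs Akt2 ran from -0.037 to 0.020, Ghr from -0.028 to 0.0026 and Irs2 from -0.049 to 0.13. The causes were not tested.

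Replicate numbers did not pair the samples. Of 24 pairs of arrays with the same number, 9 had a correlation of deviations over 0.1 (range -0.171 to 0.28), and 4 arrays matched best with their own number. With the replicate block, 0 member probe sets passed with siKeap1-2 (5.79% of all probe sets), and the other counts stayed within 1.5 times.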
